A study of Mus musculus with 2 samples.

Results

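The 34 genes described here are immediate early and dissociation response genes, picked by symbol from a list of stimulus-induced transcription factors, feedback inhibitors and stress genes, among 32285 features measured in single cells of mouse aorta. All 34 had unique molecular identifiers (UMIs, each tagging 1 captured transcript) in both libraries of the study, 1 per group. Both groups were male C57BL6 mice with the Cept1fl/fl genotype, and both received tamoxifen, as 5 daily injections of 1 mg followed by 5 days of recovery. The Cept1 overexpression group carried a tamoxifen-inducible Cre-ERT2 recombinase driven by the VE-cadherin promoter, which is active in endothelial cells, and the control group was Cre negative. Age was labelled as 6 to 8 weeks, while the protocol starts from at least 8 weeks. Each condition used 3 mice, with any pooling of tissue not given in the sources used here. Aortas from arch to bifurcation were digested for 1 hour at 37 °C in collagenase, hyaluronidase and DNase, passed through a 70 µm strainer, freed of red cells and captured with 10x Genomics 3′ v3 chemistry. A sort is mentioned without its gate. With 1 library per group no difference was tested, and genotype, digestion and library cannot be told apart.

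Immediate early genes are transcribed within minutes of a stimulus because the factors that switch them on, such as SRF with its ternary complex partners, CREB and NF-kappa B, are already present in the resting cell. Their products are AP-1 subunits (the Fos and Jun families with Atf3 and Maff), zinc finger and orphan nuclear receptor factors (Egr, Klf and Nr4a) and proteins that shut the response down again, by removing phosphate from kinases (Dusp1), by promoting decay of the transcripts (Zfp36), or by holding NF-kappa B in the cytoplasm (Nfkbia). Enzymatic dissociation of a tissue is itself known to induce these genes, and in endothelium Klf2 and Klf4 also follow blood flow.

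The Cept1 and control libraries held 95735360 and 88220524 UMIs over 17728 and 14349 barcodes, of which 10668 and 8563 were kept as cells, with medians of 6308 and 6689 UMIs per cell. Cells were sorted computationally into 13 classes by counting detected marker genes, and a class name below stands for that gate and not for a type called by the authors. A level is a gene's UMIs as a share of all UMIs of its class in that library, on the usual CPM scale, with the Cept1 library given first and the control second. Ratios are log2 of Cept1 over control, with exact 95% Clopper-Pearson intervals in parentheses that cover counting error only. A gene was taken as measured in a class with at least 50 UMIs over both libraries, and a ratio was counted as higher or lower from 1.5-fold. The Cept1 gene, whose overexpression is the design, was at 128 and 79.4 CPM in blood endothelial cells, a ratio of 0.69 (0.53 to 0.86). In arterial and capillary endothelial cells its ratios were 0.72 and 0.89. The interval held 0 in venous (0.42, -0.21 to 1.06) and lymphatic cells (0.18, -0.13 to 0.50). Smaller ratios above 0 were also seen outside endothelium. They were 0.36 (0.07 to 0.65) in T or NK, 0.32 (0.09 to 0.54) in smooth muscle, 0.18 (0.06 to 0.30) in macrophage and 0.12 (0.01 to 0.23) in fibroblast cells. In monocytes, neutrophils, B and Schwann cells the interval held 0. Endothelial markers summed to 9605 and 10083 CPM in arterial and 6997 and 7012 CPM in capillary cells. The gate itself counted these markers, so the sums describe the gated cells and are no independent check of the gate.

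The deposited counts show how much RNA each gene left, and the sequence in front of the gene shows which short elements it carries. RefSeq promoters on GRCm38.p6, 250 bases before to 50 after a start, were matched for 27 of the 34 genes by symbol. Egr1, Egr3, Ier2, Nfkbiz, Cebpd, Myc and Fosl1 were not matched. Each motif was searched on both strands, and a promoter could count under several. The cAMP response element TGACGTCA was present in 4 of the 27 genes (14.8%: Dusp1, Btg2, Maff and Ppp1r15a) and in 2.03% of all 27025 genes with a promoter. The Egr motif GCGNGGGCG was present in 11 (40.7%) against 6.27%, among them Btg2, Gadd45b, Zfp36, Klf2 and Klf4. The kappa B motif was present in 8 (29.6%) against 9.55%, and included Nfkbia, whose product inhibits the factor that binds it. The CArG box, the SRF element, was present in Egr2 and Zfp36 (7.41%) against 1.81%, and the TATA box TATAAA in 7 (25.9%) against 15.7%. The AP-1 motif TGANTCA was present in Csrnp1 alone (3.70%) against 8.97%. Median GC content was 64.7% in the promoters of the list and 52.8% in all, and the part of base composition in these shares was not tested. These are matches of letters in a short window and not bound sites.

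The stretches before the start of Fos, Btg2 and Gadd45b, which encode a subunit of AP-1, an inhibitor of proliferation and a stress sensor, are shown because the ratios of all 3 had opposite signs in arterial and capillary cells, and because they carry 4 of the motifs searched. Jun and Junb had opposite signs too, and the 250 bases before their starts held no matched motif. A link between motifs and ratios was not tested. Capitals mark matched motifs. The Fos stretch lies at chr12:85473640-85473889 on the plus strand and holds a kappa B match at 214 to 205 and TATAAA at 33 to 28 bases before its start. The Btg2 stretch lies at chr1:134079156-134079405 on the minus strand and holds TGACGTCA at 166 to 159 and GCGCGGGCG at 131 to 123 before its start. The Gadd45b stretch lies at chr10:80929841-80930072 on the plus strand and holds TATAAA at 46 to 41 and CGCCCGCGC, the Egr motif on the other strand, at 30 to 22 before its start.
Fos: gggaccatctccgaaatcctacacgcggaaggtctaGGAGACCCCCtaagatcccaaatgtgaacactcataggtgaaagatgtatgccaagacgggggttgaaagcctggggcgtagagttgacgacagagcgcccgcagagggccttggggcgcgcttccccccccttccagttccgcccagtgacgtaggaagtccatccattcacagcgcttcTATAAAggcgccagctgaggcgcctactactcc
Btg2: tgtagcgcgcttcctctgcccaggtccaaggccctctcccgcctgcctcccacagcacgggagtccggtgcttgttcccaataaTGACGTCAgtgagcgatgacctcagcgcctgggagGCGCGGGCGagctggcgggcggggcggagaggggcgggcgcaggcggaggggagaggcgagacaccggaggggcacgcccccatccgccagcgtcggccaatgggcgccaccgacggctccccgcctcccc
Gadd45b: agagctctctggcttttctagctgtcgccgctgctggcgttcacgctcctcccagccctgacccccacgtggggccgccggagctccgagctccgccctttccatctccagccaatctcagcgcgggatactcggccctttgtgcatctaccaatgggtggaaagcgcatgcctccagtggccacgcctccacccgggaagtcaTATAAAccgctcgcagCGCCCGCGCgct
For Ppp1r15a the match TGACGTCA lay 12 to 5 bases before the start. For Zfp36 a CArG box, CCATAAAAGG, lay 58 to 49 and GCGGGGGCG 105 to 97 bases before the start.

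Genes of the list were detected in every class, at levels that ranged widely between classes. They made up 3.58% and 3.72% of all UMIs in macrophages of the Cept1 and control libraries, 3.67% and 1.88% in neutrophils, and 0.599% and 0.518% in arterial endothelial cells. Over 12 classes (subtypes of blood endothelium taken separately), the class with the highest CPM was the same in both libraries for 19 of 34 genes, and the median Spearman correlation of a gene's class levels between libraries was 0.87, the lowest 0.48 (Ppp1r15a, a phosphatase subunit that restores translation after stress). These correlations are over classes that share a library and its depth, and are descriptions only.

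Macrophages had the highest level in both libraries for Fos, the AP-1 partner of Jun, at 4055 and 3797 CPM, and for Jun at 2043 and 2049 CPM. They were also highest for Egr1, a zinc finger factor, at 2710.5 and 2701 CPM, for Atf3, a stress-induced bZIP factor, at 1533 and 1668 CPM, and for Klf6, Klf4, Fosb, Jund, Nfkbiz and Ier2, the last with intervals that overlapped those of monocytes. For Fos the Schwann cells came next, at 3736 and 3667 CPM, and in the control library the intervals of these neighbours in the order overlapped. Neutrophils led for Cebpb, a factor of myeloid maturation, at 4388 and 2169 CPM, and for Fosl1 and Fosl2, further Fos family members. Myc, a growth factor-induced regulator of biosynthesis, was highest in B cells at 129 and 51.5 CPM, and Nr4a3, an orphan nuclear receptor induced by antigen receptor signals, in T or NK cells at 207 and 148 CPM. Nr4a1 was highest in monocytes at 1342 and 1011 CPM, Socs3, an inhibitor of cytokine signalling, in Schwann cells at 679 and 845 CPM, and Cebpd in fibroblasts at 618 and 775 CPM.

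Arterial endothelial cells had the lowest level of the 12 classes in both libraries for Fosb, Jund, Btg2, Ier5 and Cebpb. Klf2, which sustains the quiescent endothelial state, stood at 1097 and 1106 CPM in arterial, 1037 and 1388 CPM in capillary and 1496 and 1741 CPM in venous cells, above 189 and 196 CPM in smooth muscle. Venous cells held several genes at levels far above arterial cells in both libraries. Fos was at 2071 and 2857 CPM in venous against 198 and 162 CPM in arterial cells, and Ier3, an early gene linked to survival under stress, at 523 and 858 CPM against 169 and 122 CPM. The heat map of levels by class shows these orders gene by gene.

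**Figure D1:**
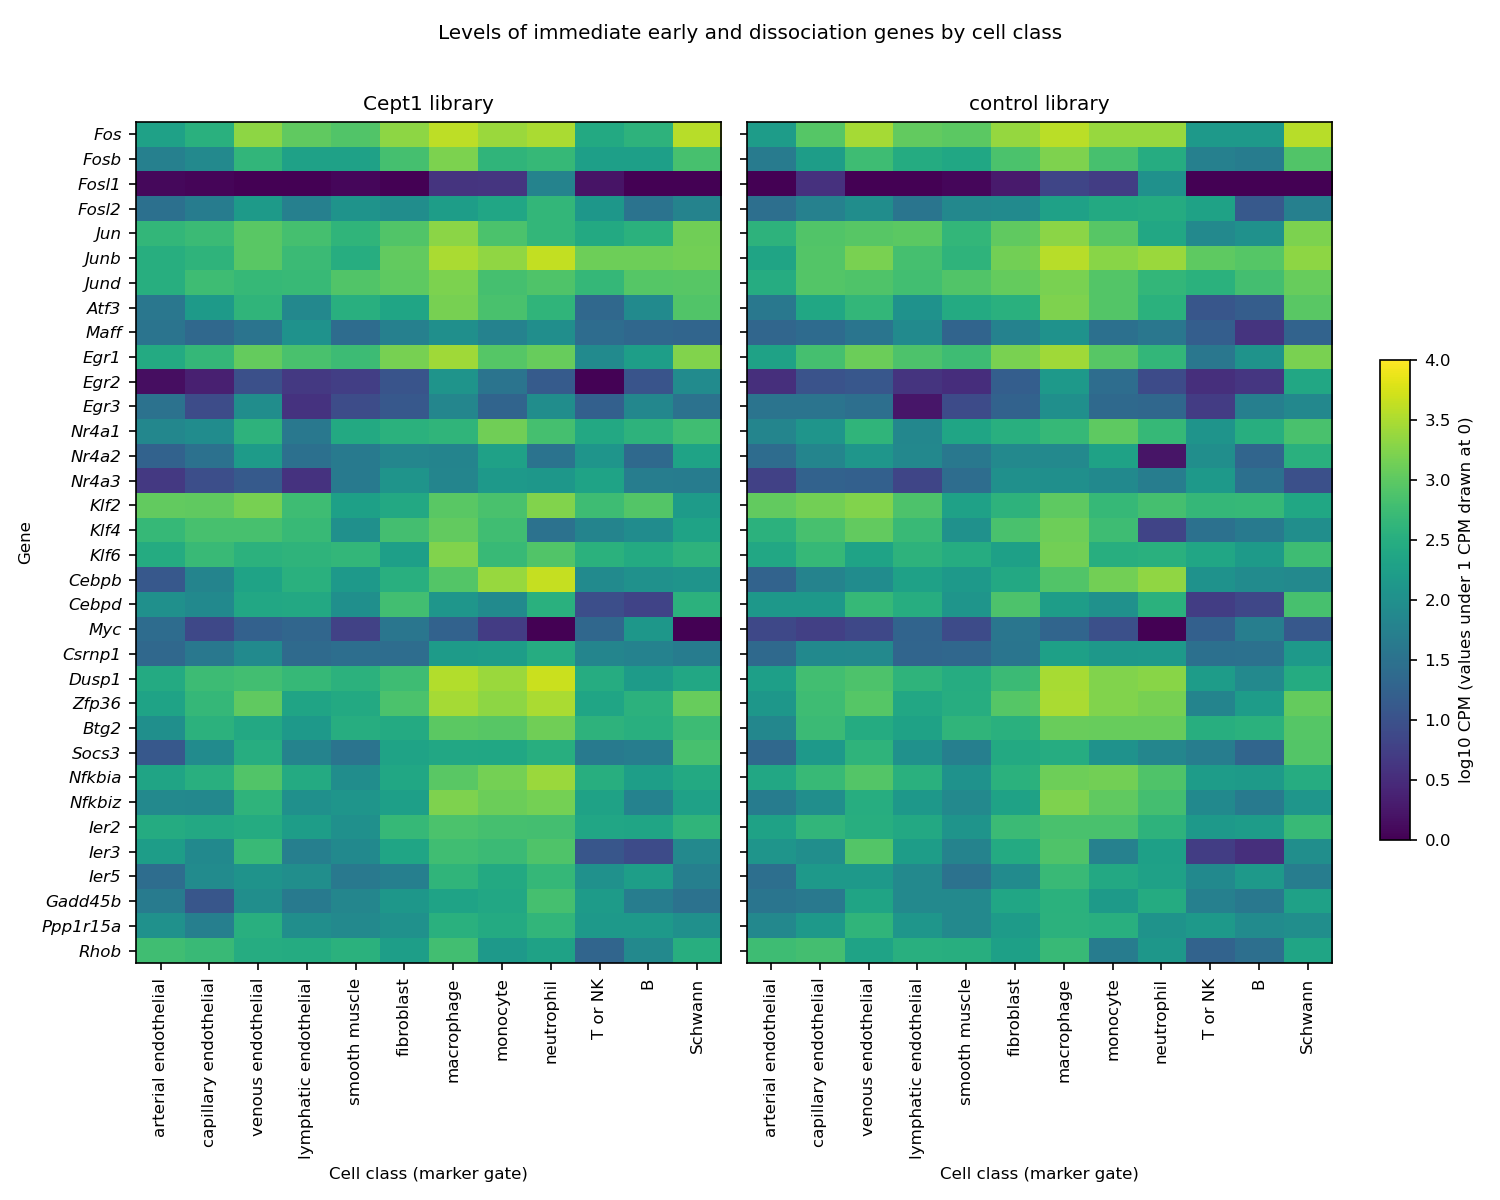
Level of each of the 34 genes (rows, grouped by role) in each cell class (columns) of the Cept1 and control libraries, as colour on a log10 scale of CPM on which values under 1 CPM are drawn at 0. In the Cept1 library the macrophage column is the brightest for Fos, Jun and Egr1, and in both libraries the arterial columns are dark for Fosb, Btg2 and Cebpb.

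The design addresses endothelial Cept1, so the endothelial classes come first. In blood endothelial cells pooled (1184 and 551 cells), the list was lower in the Cept1 library. Of 33 measured genes 1 was at least 1.5-fold higher and 10 were at least 1.5-fold lower, where 3.75% and 5.08% of all 11290 genes measured there were. Intervals lay above 0 for 2 genes and below 0 for 21 (13.6% and 14.6% of all genes), and the median ratio was -0.26, beside -0.01 over all genes. The gene that was higher was Myc, at 22.1 and 7.98 CPM, a ratio of 1.47 (0.98 to 1.99). Fos was at 338 and 629 CPM, a ratio of -0.90 (-0.97 to -0.82), and Socs3 at 45.5 and 93.2 CPM, a ratio of -1.03 (-1.23 to -0.84). The pooled value mixes subtypes in unequal shares. Arterial cells were 762 of 1184 in the Cept1 library and 259 of 551 in the control library, and the list's level differs between arterial and capillary cells, so the subtypes are described separately below. A range of under 30 list UMIs after thinning is described with the counts per cell. Over blood endothelial cells in that range the summed ratio was 0.17 (0.15 to 0.20), beside -0.28 (-0.30 to -0.26) over all cells. The limit was chosen after the distributions were seen and uses the list's own UMIs. It took out 6.29% of thinned Cept1 cells and 14.8% of thinned control cells. This choice of cells shapes the ratio and its interval, so the change of sign cannot be set against the ratio of all cells.

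In arterial cells the list leaned higher in the Cept1 library, and in capillary cells it was lower. Of 31 genes measured in arterial cells 5 were at least 1.5-fold higher and 1 lower (background 3.82% and 3.14%), intervals lay above 0 for 16 and below 0 for 5 (10.2% and 9.59%), and the median was 0.22. Of 30 genes measured in capillary cells 0 were 1.5-fold higher and 15 were lower (4.98% and 4.35%), intervals lay above 0 for 0 and below 0 for 23 (9.94% and 8.51%), and the median was -0.58. Summed over the list the ratios were 0.21 (0.18 to 0.24) in arterial and -0.52 (-0.56 to -0.49) in capillary cells. For the 30 genes measured in both, 28 had the higher ratio in arterial cells (46.5% of the 7445 genes measured in both), 21 with intervals apart (2.93%), and the median difference was 0.75 (-0.03 over all). In 10 genes the arterial interval lay above 0 and the capillary interval below 0, a pattern of opposite intervals seen in 1.14% of all genes. The difference between subtypes was not tested, since each has 1 library per group. Across the other 13 ways of gating, scaling and weighting cells tried for both subtypes, the arterial sum stayed between 0.11 and 0.27 and the capillary sum between -0.56 and -0.44. The arterial median was 0.03 with the gate that asks for 1 more marker than any other class, and 0.37 without the cell with most list UMIs.

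**Figure D2:**
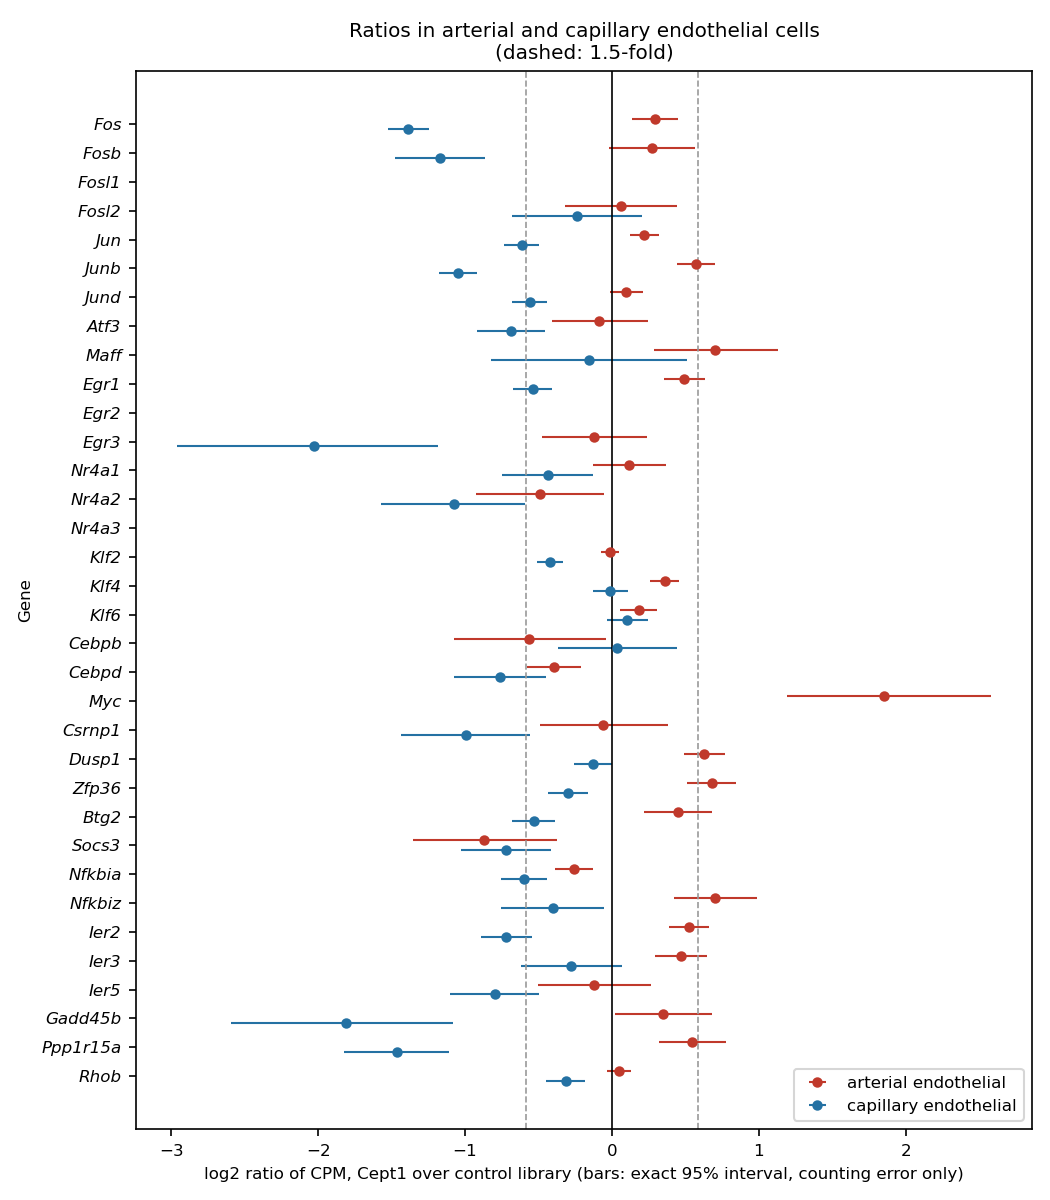
Log2 ratio of Cept1 over control for each gene measured in arterial and capillary endothelial cells, with 95% counting intervals as bars. In 28 of 30 genes the arterial point lies to the right of the capillary point, and for Fos, Junb and Ppp1r15a the bars lie on opposite sides of 0.

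The AP-1 subunits form dimers of a Fos and a Jun partner. Of 9, 8 were measured in each subtype, with medians of 0.25 in arterial and -0.65 in capillary cells. Fos stood at 342 and 894 CPM in capillary cells, a ratio of -1.39 (-1.53 to -1.25), and at 198 and 162 CPM in arterial cells, a ratio of 0.29 (0.14 to 0.45). A single arterial cell of the control library held 33.5% of its Fos UMIs there. Without the cell with most list UMIs in each class and library, the arterial ratio of Fos was 0.80 and the capillary ratio -1.35. Junb, a Jun family member, was at 323 and 217 CPM in arterial cells, a ratio of 0.57 (0.44 to 0.70), and at 407 and 840.2 CPM in capillary cells, a ratio of -1.05 (-1.18 to -0.91). Jun itself had ratios of 0.22 (0.12 to 0.32) and -0.61 (-0.74 to -0.49). These 3 genes had opposite intervals in the 2 subtypes. Fosb, at 76.3 and 171 CPM in capillary cells, had a ratio of -1.17 (-1.48 to -0.86) there and 0.27 (-0.02 to 0.57) in arterial cells. Jund, the Jun member least dependent on stimulation, had ratios of 0.10 (-0.02 to 0.21) in arterial and -0.56 (-0.68 to -0.44) in capillary cells, and Atf3 of -0.09 (-0.41 to 0.24) and -0.69 (-0.92 to -0.46). Maff, a small Maf protein that lacks an activation domain, was higher in arterial cells at 34.2 and 21.1 CPM, a ratio of 0.70 (0.29 to 1.13), while its capillary interval held 0 (-0.16, -0.83 to 0.51). The intervals of Fosl2 held 0 in both subtypes, and Fosl1 was not measured in either.

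Among the 9 zinc finger and nuclear receptor factors, 7 were measured in each subtype, with medians of 0.12 and -0.44. Egr1 was at 279.8 and 199 CPM in arterial cells, a ratio of 0.49 (0.36 to 0.63), and at 456 and 663 CPM in capillary cells, a ratio of -0.54 (-0.67 to -0.40). Egr3, an Egr factor prominent in endothelial responses to VEGF, had the lowest capillary ratio of the list, -2.03 (-2.96 to -1.19), from 15 and 55 UMIs, and an arterial ratio of -0.12 (-0.47 to 0.24). Klf2 differed little in arterial cells (-0.01, -0.07 to 0.05) and was lower in capillary cells (-0.42, -0.51 to -0.33). Klf4, which like Klf2 responds to flow, was at 480.3 and 375 CPM in arterial cells, a ratio of 0.36 (0.26 to 0.46), and at 693 and 697 CPM in capillary cells, a ratio of -0.01 (-0.13 to 0.11). Klf6, a relative induced by injury, had ratios of 0.18 (0.06 to 0.31) and 0.10 (-0.04 to 0.24). Nr4a1 had ratios of 0.12 (-0.13 to 0.37) and -0.44 (-0.75 to -0.13), and Nr4a2 was lower in both, at -0.49 (-0.92 to -0.05) and -1.08 (-1.57 to -0.59). Egr2 and Nr4a3 had under 50 UMIs in each subtype.

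The 9 feedback inhibitors and RNA decay factors had the highest arterial median of the roles with more than 3 genes, 0.47, and a capillary median of -0.53. Dusp1, the phosphatase that inactivates stress kinases, was at 279.7 and 181 CPM in arterial cells, a ratio of 0.63 (0.49 to 0.77), and at 561 and 614 CPM in capillary cells, where the ratio was -0.13 (-0.26 to 0.00). Zfp36, which binds AU-rich transcripts and promotes their decay, was at 208 and 130.1 CPM in arterial cells, a ratio of 0.68 (0.51 to 0.85), and at 459 and 565 CPM in capillary cells, a ratio of -0.30 (-0.44 to -0.16). Nfkbiz, a nuclear regulator of NF-kappa B targets, was at 76.9 and 47.3 CPM and had a ratio of 0.70 (0.43 to 0.98) in arterial cells, against -0.40 (-0.75 to -0.05) in capillary cells. In these 3 genes arterial cells of the Cept1 library stood at least 1.5-fold above the control. Ier2, a nuclear protein of the early response, had ratios of 0.52 (0.39 to 0.66) and -0.72 (-0.89 to -0.54), and Btg2 of 0.45 (0.22 to 0.68) and -0.53 (-0.68 to -0.38). Ier3 was at 169 and 122 CPM in arterial cells, a ratio of 0.47 (0.29 to 0.65), and its capillary interval held 0. Socs3 and Nfkbia did not show the split. Socs3 was lower in both subtypes, at 12.5 and 22.8 CPM in arterial cells (-0.87, -1.36 to -0.38) and 84.2 and 138 CPM in capillary cells (-0.72, -1.03 to -0.41). Nfkbia had ratios of -0.26 (-0.39 to -0.13) and -0.60 (-0.76 to -0.44). Ier5 had ratios of -0.12 (-0.50 to 0.27) and -0.80 (-1.10 to -0.50).

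The remaining genes are Gadd45b, Ppp1r15a and Rhob, which act in growth arrest, recovery of translation and the cytoskeleton, and the factors Cebpb, Cebpd, Myc and Csrnp1. Ppp1r15a was at 52.5 and 145 CPM in capillary cells, a ratio of -1.46 (-1.83 to -1.11), and at 106 and 72.8 CPM in arterial cells, a ratio of 0.55 (0.32 to 0.77). Gadd45b was at 11.9 and 41.5 CPM in capillary cells, a ratio of -1.81 (-2.59 to -1.08), while in arterial cells its ratio was 0.35 (0.02 to 0.68). Rhob, a short-lived small GTPase, had ratios of 0.05 (-0.04 to 0.13) and -0.31 (-0.45 to -0.18). Myc had the highest arterial ratio of the list, 1.85 (1.20 to 2.58), at 26.2 and 7.25 CPM from 170 and 21 UMIs, and fewer than 50 UMIs in capillary cells. Cebpd had ratios of -0.39 (-0.58 to -0.21) and -0.76 (-1.08 to -0.45), Csrnp1 of -0.06 (-0.49 to 0.38) and -0.99 (-1.44 to -0.56), and Cebpb of -0.56 (-1.07 to -0.04) and 0.04 (-0.37 to 0.44). Cebpb and Klf6 were the genes with a capillary value above 0, and Cebpb and Socs3 the 2 whose ratio was not higher in arterial cells.

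Depth and other markers differed beside these values. Median UMIs per cell were 7400.5 and 9260 in arterial and 4663 and 5963 in capillary cells. Smooth muscle markers summed to 1044 and 672 CPM in arterial and 481 and 359 CPM in capillary cells, and adipocyte markers to 655 and 379.5 CPM in capillary cells. B cell markers in arterial cells, 719.7 and 8.98 CPM, came almost wholly from Ighm in 1 cell of the Cept1 library. The part of depth and of these transcripts in the subtype ratios was not tested beyond the alternative settings, in which 22 to 29 of 23 to 31 genes had the higher ratio in arterial cells. Of the 10 genes with opposite intervals, Fos alone took the other sign in arterial cells under an alternative (-0.03), and the count of genes at least 1.5-fold higher in arterial cells moved from 5 to 10 without the cell with most list UMIs, to 12 with free RNA subtracted, and to 2 with a looser gate, with thinned cells or without cells over 30000 UMIs. The share of all genes is not given under these settings, so the moved counts cannot be set against it.

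Venous cells were few (83 and 57), and their summed list was lower in the Cept1 library, at -0.26 (-0.30 to -0.21), while single genes lay on both sides. Of 29 measured genes 10 had a ratio above 0 and 19 below, with a median of -0.15, which was 0.03 with every cell weighted equally. The sum lay between -0.31 and -0.11 over the alternatives, the latter with a stricter cell filter that asked for 1000 genes or more and no more than 5% mitochondrial UMIs. Of these genes 4 were at least 1.5-fold higher and 6 lower (background 9.56% and 5.52%), and 7 intervals lay above 0 and 12 below (9.2% and 7.47%). With cells thinned to 2000 UMIs 2 were higher and 0 lower, and with every cell weighted equally 3 were lower, with the share of all genes not given for either setting. Cebpb was at 209 and 89.7 CPM, a ratio of 1.22 (0.67 to 1.80), and Egr3 at 92.2 and 29.1 CPM, a ratio of 1.66 (0.73 to 2.71) from 48 and 12 UMIs. Klf6 and Fosl2 were also higher, at 0.81 and 0.74. Junb was at 947 and 1547 CPM, a ratio of -0.71 (-0.88 to -0.54), and Klf4 at 674 and 1094 CPM, a ratio of -0.70 (-0.90 to -0.49). Gadd45b, Cebpd, Jund and Ier3 were lower too, at -1.15, -0.92, -0.72 and -0.72, and 1 cell held 35.03% of the Ier3 UMIs of the control library.

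Lymphatic endothelial cells (262 and 135) leaned lower. Of 30 measured genes 2 were at least 1.5-fold higher and 7 lower (4.51% and 4.96%), 5 intervals lay above 0 and 20 below (9.05% and 9.92%), the median was -0.29 and the summed ratio -0.22 (-0.24 to -0.19). With the stricter cell filter the sum was -0.037, the median -0.12 and 3 genes were lower. Thinning left 2 lower genes and a median of -0.17, and without cells over 30000 UMIs the sum was -0.38. Shares of all genes are not given for these settings. Ier3 was at 53.5 and 169.8 CPM, a ratio of -1.66 (-1.95 to -1.39), and Nr4a2 at 29.9 and 73.1 CPM, a ratio of -1.29 (-1.70 to -0.89). Nr4a1, Socs3, Gadd45b, Atf3 and Ier2 were the others past 1.5-fold lower. The direction of some of these turned under other settings. Atf3 and Socs3 had ratios of 0.31 and 0.086 with cells thinned to 2000 UMIs, and Nr4a2 of 0.43 without cells over 30000 UMIs. Cebpb, at 351 and 192 CPM, had a ratio of 0.87 (0.70 to 1.06), and Fosl2 of 0.59 (0.16 to 1.03). Cebpb was thus at least 1.5-fold higher in venous and lymphatic cells, and not in arterial or capillary cells.

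A class level mixes how many cells respond with how strongly each does, so the list's UMIs were also counted per cell, with every cell thinned to 2000 UMIs and shallower cells left out. Median list UMIs per thinned cell were 11 and 8 in arterial, 11 and 13 in capillary, 13 and 16 in venous and 8 and 7 in lymphatic cells of the Cept1 and control libraries. At the upper end the order in lymphatic cells turned. The upper 10% of capillary cells began at 33 list UMIs in Cept1 and 55.8 in control, and in lymphatic cells at 22.2 and 44.2. Cells with at least 30 list UMIs, a limit chosen after the distributions were seen, were 12.3% (8.79 to 16.7%) of capillary cells in the Cept1 library and 22.4% (16.7 to 29.0%) in the control library, with exact binomial intervals. In arterial cells they were 1.24% (0.568 to 2.34%) and 2.87% (1.16 to 5.82%), and in lymphatic cells 7.34% (4.47 to 11.2%) and 12.9% (7.68 to 19.8%). All these intervals treat the cells of 1 library as independent draws. They leave out differences between mice and between libraries, and no difference in share was tested. In capillary cells 22 and 21 cells held 25 to 35 list UMIs, so the limit does not fall in a gap.

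**Figure D3:**
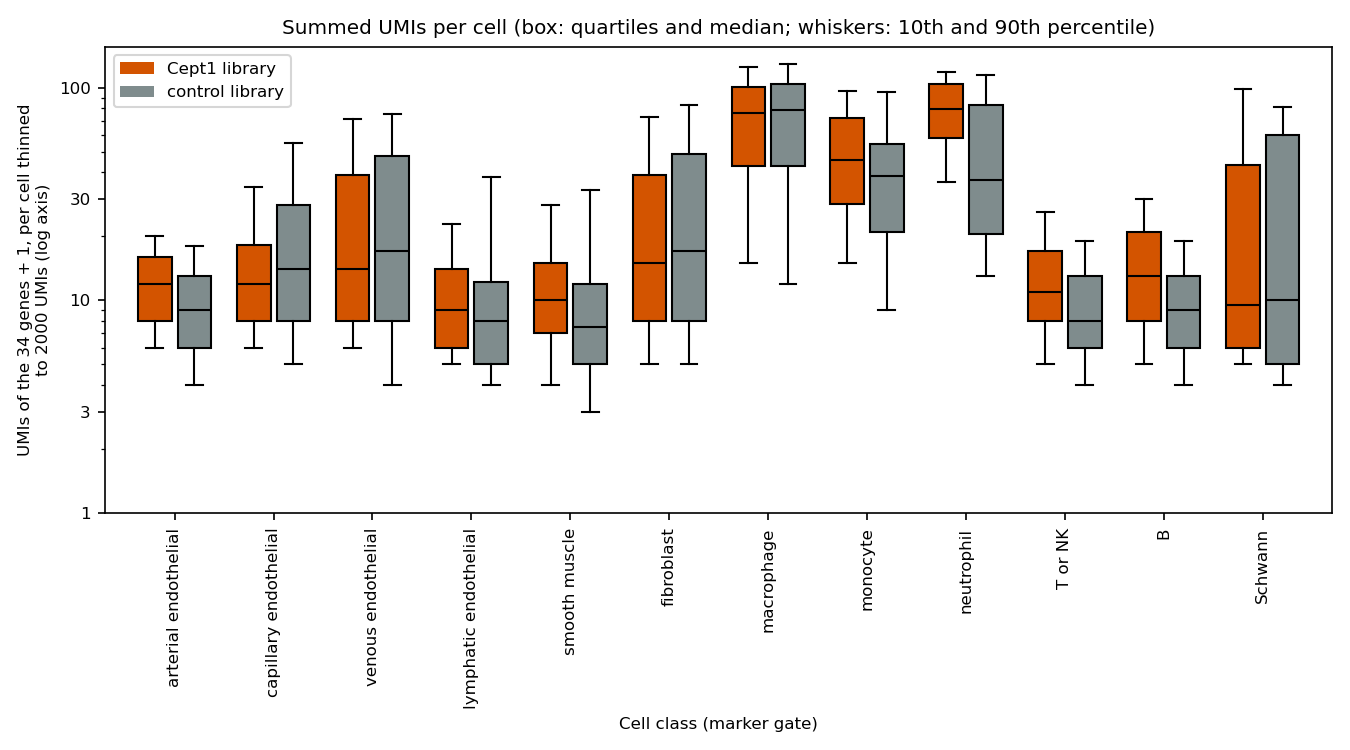
Summed UMIs of the 34 genes per cell after thinning to 2000 UMIs, by class and library, drawn plus 1 on a log axis, with boxes from the lower to the upper quartile, a line at the median and whiskers to the 10th and 90th percentile. Macrophages, with medians of 75 and 77.5, and neutrophils of the Cept1 library, at 78.5, sit highest, and the capillary cells of the control library reach further up than those of the Cept1 library.

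Class sums were then taken separately over cells below and from 30 list UMIs. Since this limit uses the genes' own UMIs, the values are a description of where in the distribution the ratios lie. Below 30, the list's sum had a ratio of 0.37 (0.35 to 0.40) in arterial, -0.19 (-0.23 to -0.14) in capillary and 0.33 (0.28 to 0.37) in lymphatic cells. From 30, the sum was at -0.32 (-0.42 to -0.23) in arterial cells, from 9 and 7 cells, and at -0.20 (-0.25 to -0.16) in capillary cells, from 36 and 43. The sum below 30 and the sum over all cells had opposite signs in several classes. In lymphatic cells the latter was -0.22 (-0.24 to -0.19). Pooled blood endothelial cells stood at 0.17 (0.15 to 0.20) below 30 against -0.28 (-0.30 to -0.26) in all cells. Fibroblasts stood at 0.07 (0.06 to 0.08) below 30 against -0.21 (-0.22 to -0.21) in all cells, and macrophages at 0.19 (0.15 to 0.22) against -0.05 (-0.06 to -0.05). Schwann cells stood at 0.21 (0.06 to 0.35) against -0.22 (-0.28 to -0.16), but their sum from 30 was 0.03 (-0.03 to 0.10). With Schwann cells thinned to 2000 UMIs the sum was 0.0096. Smooth muscle cells stood at 0.35 (0.33 to 0.38) against -0.01 (-0.03 to 0.00), where the interval of all cells held 0. With cells thinned to 2000 UMIs the smooth muscle sum was 0.024. Monocytes stood at -0.09 (-0.17 to -0.01) against 0.19 (0.16 to 0.22). In venous and neutrophil cells the interval below 30 held 0. Among arterial cells below 30, Fos had a ratio of 1.37 (1.15 to 1.60), Zfp36 of 1.37 (1.16 to 1.58), Junb of 1.01 (0.86 to 1.16) and Egr1 of 0.89 (0.73 to 1.05). In the few arterial cells from 30, the same genes had the other sign. Fos was at -0.37 (-0.66 to -0.09), Zfp36 at -0.89 (-1.32 to -0.46), Junb at -0.80 (-1.19 to -0.43) and Egr1 at -0.61 (-1.01 to -0.23). Choosing cells by these genes' own UMIs shapes the ratios and intervals in each range. Among capillary cells below 30, Fos had a ratio of -1.07 (-1.30 to -0.84), Junb of -0.78 (-1.0 to -0.57) and Gadd45b of -1.88 (-2.88 to -0.97), while Egr1 had 0.29 (0.06 to 0.52). T or NK and B cells below 30 had sums at 0.36 (0.33 to 0.40) and 0.60 (0.56 to 0.65). The list made up 15404 and 14245 CPM over all barcodes of a library, the profile used here in place of free RNA. Each deposited barcode held at least 500 UMIs, so this is not a profile of empty droplets. The free RNA in each class was taken as the lowest ratio of class level to this profile over 6 fibroblast genes that no gate used. This is a rough upper value, since cells that express these genes would raise it. The value differed between libraries. It was 4.22% and 5.60% of the UMIs in arterial, 2.72% and 1.49% in capillary, 1.52% and 1.04% in lymphatic and 2.47% and 1.07% in T or NK cells. With it subtracted, the summed ratios over all cells were 0.26 in arterial, -0.56 in capillary, -0.23 in lymphatic and 0.55 in T or NK cells. Its part in the low range was not tested.

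**Figure D4:**
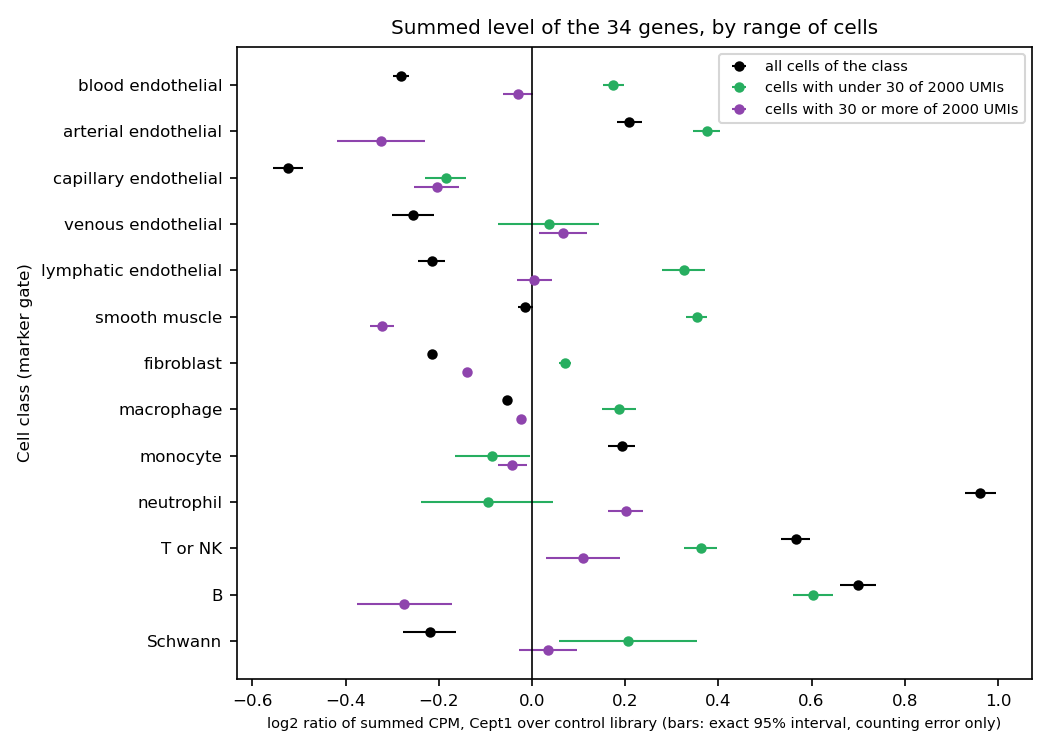
Summed log2 ratio of the list in cells below 30 and from 30 list UMIs (per 2000 UMIs), and in all cells, by class, with 95% counting intervals. In the low range capillary cells and monocytes lie below 0, the bars of venous cells and neutrophils cross it, and the other classes lie above it.

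The other classes of the vessel wall differed less. Smooth muscle cells (721 and 615) had a median of -0.01 over 33 measured genes, with 4 at least 1.5-fold higher and 1 lower (2.91% and 3.58%), and 13 intervals above and 11 below 0 (13.5% and 14.2%). Nfkbiz was at 123 and 76.6 CPM, a ratio of 0.68 (0.54 to 0.82), and Nr4a3 at 42.4 and 26.9 CPM, a ratio of 0.66 (0.41 to 0.90). Fosl2 and Egr2 were also higher, at 0.59 and 0.72, the latter from 42 and 31 UMIs. Fos was at 833 and 982 CPM, a ratio of -0.24 (-0.28 to -0.19), and Socs3 was lower at -0.64 (-0.86 to -0.42). Smooth muscle cells differed in depth, with medians of 10473 and 14812 UMIs. With a minimum of 1000 genes and at most 5% mitochondrial UMIs, the median over the list was -0.21 and 5 genes were lower, while 6 were lower with free RNA subtracted and 3 with cells thinned to 2000 UMIs. For these counts the share of all genes is not given.

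Fibroblasts were the largest class (5450 and 4081 cells) and leaned lower by a small amount. Of 34 genes 0 were at least 1.5-fold higher and 5 lower (2.07% and 5.02%), 5 intervals lay above 0 and 27 below (16.4% and 24.8%), and the median was -0.21. Gadd45b was at 132 and 230.4 CPM, a ratio of -0.81 (-0.86 to -0.75), and Atf3 at 228 and 351 CPM, a ratio of -0.63 (-0.67 to -0.58). Ier5, Nfkbia and Fosl1 were the others, at -0.68, -0.61 and -0.93. Fos, at 2071 and 2357 CPM, and Egr1, at 1499.5 and 1549.6 CPM, had ratios of -0.19 (-0.20 to -0.17) and -0.05 (-0.07 to -0.03). Cebpb went the other way, at 333 and 263 CPM and 0.34 (0.30 to 0.38).

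Macrophages (1666 and 760) differed little in sum, -0.05 (-0.06 to -0.05). Of 34 genes 0 were at least 1.5-fold higher and 2 lower (4.11% and 3.53%), and 6 intervals lay above 0 and 23 below (15.4% and 13.8%). Gadd45b was again lower, at 208 and 365 CPM, a ratio of -0.81 (-0.88 to -0.74), and Fosl1 had -0.80 (-1.35 to -0.26). Nfkbia was at 955 and 1326 CPM, a ratio of -0.47 (-0.51 to -0.44), and Klf6 at 1744 and 1407 CPM, a ratio of 0.31 (0.28 to 0.34). Gadd45b was thus below 0 with its whole interval in capillary, venous, lymphatic and Schwann cells, fibroblasts, macrophages and, by a small margin, smooth muscle, and above 0 in arterial, T or NK, monocyte and neutrophil cells. The neutrophil ratio, 1.15, was -0.45 without the cells that held a UMI of the granule genes Camp, Ngp or Ltf.

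Monocytes (103 and 69) leaned higher. Of 31 genes 9 were at least 1.5-fold higher and 1 lower (9.01% and 10.6%), 14 intervals lay above 0 and 6 below (12% and 14.6%), and the median was 0.18. Ier3 stood apart at 539 and 57.9 CPM, a ratio of 3.22 (2.77 to 3.70), followed by Rhob at 141 and 47.2 CPM (1.58, 1.04 to 2.16) and Socs3 at 242 and 110.5 CPM (1.13, 0.76 to 1.51). Fosb was lower, at 411 and 697 CPM and -0.76 (-0.96 to -0.57). Monocytes with a UMI of Arg1, an enzyme of alternatively activated cells, were 8.74% of the class in Cept1 and 0% in control (0 of 69 cells, which allows a share of up to 4.35%). Without them the median was 0.23. Of 30 genes 6 were then higher and 1 lower, and the share of all genes is not given for this subset. Schwann cells (55 and 60) had 26 measured genes, 3 higher and 7 lower (11.4% and 12.2%), 3 intervals above 0 and 13 below (11.7% and 12.5%), with Gadd45b at 32.3 and 193 CPM (-2.58, -3.85 to -1.51) and Egr2, a master factor of myelination, at 84.8 and 252 CPM (-1.57, -2.34 to -0.86).

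Lymphocytes carried more list UMIs in the Cept1 library. In T or NK cells (265 and 658) 18 of 31 genes were at least 1.5-fold higher and 1 lower (11.4% and 5.33%), 25 intervals lay above 0 and 2 below (19.8% and 9.34%), and the median was 0.72. Zfp36 was at 225 and 63.7 CPM, a ratio of 1.82 (1.61 to 2.03), and Jun at 264 and 76.1 CPM, a ratio of 1.80 (1.60 to 1.99). Fosb was at 178 and 55.2 CPM, a ratio of 1.69 (1.46 to 1.92), and Gadd45b at 155 and 54.5 CPM, a ratio of 1.51 (1.27 to 1.75). Nfkbiz and Nr4a1 had ratios of 1.31 and 1.16, and Fosl2 was lower, at 130.2 and 204 CPM and -0.65 (-0.85 to -0.45). The class differed in makeup between libraries, with median depths of 6549 and 7339.5 UMIs and median mitochondrial shares of 4.84% and 3.80%. Markers of other types were present in it, those of fibroblasts at 407 and 183 CPM and of macrophages at 85.9 and 46.9 CPM. The median over the list was 0.71 with free RNA subtracted, 0.64 with cells thinned to 2000 UMIs and 0.67 with the stricter cell filter. Cells with a UMI of Lef1, a factor of naive T cells, were 73.6% and 89.7% of the class. Among the 70 and 68 cells without one the median was 0.44. There 11 of 24 genes were higher and 2 were lower, and the share of all genes is not given for this subset.

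In B cells (209 and 593) 18 of 29 genes were at least 1.5-fold higher and 0 lower (5.34% and 12.5%), 22 intervals lay above 0 and 0 below (8.51% and 15.7%), and the median was 0.78, beside -0.10 over all genes. The AP-1 subunits had the highest median of the roles, 1.47. Atf3 was at 81.8 and 15.4 CPM, a ratio of 2.41 (1.92 to 2.92), Fosb at 182 and 47.7 CPM, a ratio of 1.93 (1.63 to 2.23), and Jun at 353 and 106 CPM, a ratio of 1.73 (1.53 to 1.94). Fos was at 386 and 139.6 CPM, a ratio of 1.47 (1.28 to 1.66), Myc at 129 and 51.5 CPM, a ratio of 1.32 (1.0 to 1.64), and Klf2, which retains lymphocytes in circulation, at 852 and 472 CPM, a ratio of 0.85 (0.74 to 0.97). Per thinned cell the median was 12 and 8 list UMIs in B cells and 10 and 7 in T or NK cells, so the medians were higher too in the Cept1 library. Median depths of the B cells were 4433 and 5358 UMIs, and their median mitochondrial shares 6.23% and 4.65%. Fibroblast markers summed to 305 and 224 CPM and macrophage markers to 103 and 63.9 CPM. Ighm, the heavy chain of IgM, was at 11794 and 2078 CPM. The median was 0.79 with free RNA subtracted, 0.72 with thinned cells and 0.87 with the stricter cell filter, and the part of Ighm-rich cells was not tested. Leaving out B cells with a UMI of Jchain, a plasma cell gene, left a median of 0.82 and 18 of 29 genes higher, with the share of all genes not given for this subset.

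Neutrophils (121 and 81) had the highest median ratio of the 13 classes. Of 30 genes 24 were at least 1.5-fold higher and 1 lower (21.8% and 15.2%), 27 intervals lay above 0 and 1 below (26.9% and 15.6%), and the median was 1.06, beside 0.10 over all genes. Socs3 was at 319.6 and 68.1 CPM, a ratio of 2.23 (1.73 to 2.76), Ier3 at 787 and 188 CPM, a ratio of 2.07 (1.77 to 2.38), and Nfkbia at 2544 and 798 CPM, a ratio of 1.67 (1.52 to 1.83). Dusp1 was at 4833 and 1929.6 CPM, a ratio of 1.32 (1.22 to 1.43), and Fosl1 was lower, at 62.5 and 106 CPM and -0.77 (-1.41 to -0.15). Cells with a UMI of Camp, Ngp or Ltf, granule genes of immature neutrophils, were 14.9% of the class in Cept1 and 56.8% in control. Among the 103 and 35 cells without such UMIs, the median was -0.16 and the summed ratio -0.10. By these 2 values the list was not higher in the Cept1 library among neutrophils without granule gene UMIs. There 1 of 29 genes was at least 1.5-fold higher and 3 lower, and the share of all genes is not given for this subset. Median mitochondrial shares of the class were 3.50% and 1.51%.

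**Figure D5:**
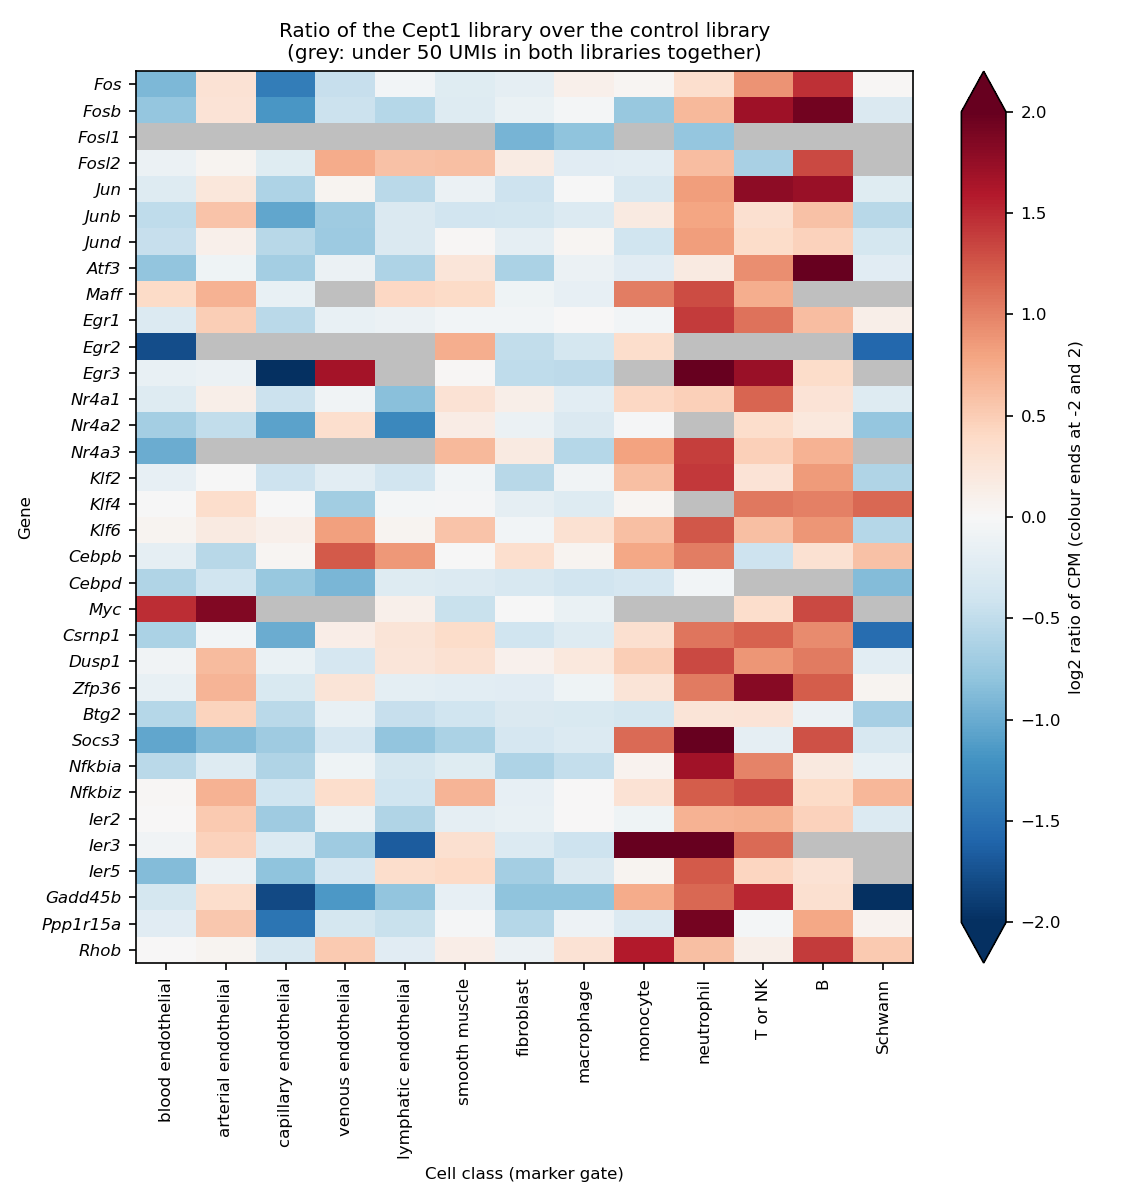
Log2 ratio of Cept1 over control for the 34 genes (rows) in 13 classes (columns), red above and blue below 0 with the colour ending at -2 and 2, and genes with under 50 UMIs grey. Neutrophil, T or NK and B columns are mostly above 0 with medians of 1.06, 0.72 and 0.78, and the capillary column is mostly below 0 with a median of -0.58.

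Genes around the list in the same pathway were read from 6 further lists, naming the 3 genes of each with the largest absolute ratio in blood endothelial cells. Of 18 upstream kinases and factors, all measured there, 1 was at least 1.5-fold higher and 0 lower (3.75% and 5.08% of all genes), with a median of -0.07. That gene was Srf, the factor that binds CArG boxes, at 14.9 and 7.98 CPM, a ratio of 0.90 (0.39 to 1.44). It was at 15.1 and 6.56 CPM in arterial cells, a ratio of 1.20 (0.48 to 2.00) from 98 and 19 UMIs, and its capillary interval held 0. Map2k1, the kinase above ERK, was at 41.3 and 56.4 CPM (-0.45, -0.68 to -0.22), and Elk1, a partner of SRF, at 7.62 and 6.03 CPM (0.34, -0.29 to 1.0). Of 10 inhibitors of ERK signalling 9 were measured, 0 higher and 3 lower, with a median of -0.47. Spry1, which blocks receptor signals to ERK, was at 22.4 and 56.8 CPM, a ratio of -1.34 (-1.61 to -1.08). In capillary cells it was at 104 and 171 CPM, a ratio of -0.72 (-1.0 to -0.44), while in arterial cells it had 4 and 8 UMIs. The part of the unequal subtype shares in the pooled ratio was not tested. The phosphatases Dusp2 and Dusp5 had ratios of -0.86 (-1.29 to -0.44) and -0.61 (-1.11 to -0.12).

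Of 30 other rapid response genes, all measured in blood endothelial cells, 2 were higher and 2 were lower, near the 3.75% and 5.08% of all genes. Their median was -0.13. In arterial cells 5 of 29 were higher and 0 lower (3.82% and 3.14% of all genes), with a median of 0.21. In capillary cells 0 of 26 were higher and 1 lower, a share near the 4.98% and 4.35% of all genes, with a median of -0.20. Ccn1, a secreted matrix protein induced by SRF and YAP, was at 909.7 and 488 CPM in arterial cells, a ratio of 0.90 (0.81 to 0.98), and at 155 and 160.5 CPM in capillary cells, a ratio of -0.05 (-0.30 to 0.20). Ptgs2, an inducible enzyme of prostaglandin synthesis, was at 24.96 and 12.5 CPM in blood endothelial cells, a ratio of 1.0 (0.60 to 1.43), and Arc at 3.53 and 7.39 CPM (-1.07, -1.79 to -0.35), with 60.5% of its control UMIs in 1 cell. None of 11 heat shock genes passed 1.5-fold, their median was -0.18, and Hspa8, Hspb1 and Dnajb1, chaperones of the list, had ratios of -0.31 (-0.37 to -0.26), -0.45 (-0.53 to -0.38) and -0.46 (-0.70 to -0.23). Of 8 cytokines of the acute response 6 were measured in blood endothelial cells, 1 higher and 1 lower (3.75% and 5.08% of all genes), with a median of 0.49. Il6 was at 5.85 and 21.6 CPM (-1.88, -2.38 to -1.40), and in arterial cells 1 cell of the control library held 87.5% of its 72 UMIs. Ccl7 and Il1b, a chemokine and an interleukin, had ratios of 0.55 (-0.08 to 1.23) and 0.88 (-0.08 to 1.95). Of 7 flow response genes 6 were measured and 0 passed 1.5-fold, with a median of -0.01, and Plpp3, Hmox1 and Timp3 had ratios of -0.31 (-0.38 to -0.24), -0.26 (-0.68 to 0.17) and 0.07 (0.03 to 0.11).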

How the data were processed

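The authors deposited raw UMI counts per gene and barcode, which per the file headers came from Cell Ranger 7.2.0. Seurat and mm10 are also named, per the submitters' processing notes, with strand and intronic reads not given in the sources used here. Cells with at least 500 genes, at most 10% mitochondrial UMIs and a Scrublet score up to 0.25 (scanpy 1.11.5, expected rate 8%) were kept. That limit removed 500 (4.48%) and 166 (1.90%) cells as doublets, while the automatic limit, 0.702 in the control library, called 0 there. The libraries shared 74 barcodes. A cell took the class of which it had most of 8 markers, at least 3 and 2 more than of any other. Endothelial and myeloid subtypes took the most of 6 markers, at least 2, and lymphatic cells at least 3 of 6. Dendritic, mast and mesothelial cells, under 50 in a library, are not reported. UMIs were summed per class and library, with no test and no p-value. The 34 genes are all reported, with 3 genes of each pathway list by absolute ratio in blood endothelial cells. Genes and lists were chosen with earlier results of these data known. Intervals cover counting error only, and the counting code was tested on simulated data. Alternatives varied filters, gate, scaling, weighting of cells, free RNA and thresholds.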

Additional observations from a re-analysis of the deposited data

Results flagged for a closer look

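The summed level of the 34 genes had ratios of opposite sign in arterial and capillary endothelial cells, each with its counting interval on its own side of 0, and the arterial log2 ratio exceeded the capillary one by 0.73. The difference was not tested, since each group holds 1 library. The same held for 10 single genes. The arterial ratio exceeded the capillary ratio by 2.15 for Gadd45b and by 2.01 for Ppp1r15a, which act in growth arrest and recovery of translation. For the AP-1 subunits Fos, Junb and Jun it did so by 1.68, 1.62 and 0.84, and for Egr1 by 1.03. For Ier2, Nfkbiz, Btg2 and Zfp36, among the feedback inhibitors and decay factors, the differences were 1.24, 1.10, 0.98 and 0.98. None of these differences was tested either. One control cell held 33.5% of the arterial Fos UMIs of its library.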

How the results depend on the processing

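The results rest on 1 library per group, so leaving out a replicate and any test were not possible, and depth limits genes near 50 UMIs in small classes (venous, monocyte, neutrophil and Schwann). No paired analysis was possible because each group holds 1 library. Of 764 comparisons of a class's median, summed ratio or count with its value under an alternative, 582 stayed within an interval or, for counts, moved by up to 1.5 times. For a sum this was its counting interval. For a median it was the counting interval of the gene or genes in the middle of the order, which can be wide. In T or NK cells it ran from 0.18 to 1.24, so the median of 0.44 without Lef1 cells stayed inside it. Subtracting free RNA gave no value for fibroblasts, the estimate exceeding the level itself. Leaving out cells over 30000 UMIs, the cell with most list UMIs, or cells with Lef1, granule gene, Arg1 or Jchain UMIs were alternatives chosen after seeing the data. Gene values were followed per class only where the gene was measured, past 1.5-fold and had an interval that excluded 0. Of these 144 values, 17 changed sign under at least 1 of 21 settings, and these are given below. Smaller ratios were not followed there, among them arterial Fos, which reached -0.03 under an alternative. Values are followed by the reported value in parentheses, and the cause of each shift was not tested beyond the setting named. Shares over all genes are given for the reported counts only, not for the alternatives.

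The stricter gate (4 markers, 3 more) gave summed ratios of -0.26 (-0.28) in blood, -0.20 (-0.26) in venous, 0.0093 (-0.014) in smooth muscle, -0.21 (-0.21) in fibroblast, 0.43 (0.57) in T or NK and -0.087 (-0.22) in Schwann. The looser gate (1 more marker) gave medians of 0.030 (0.22) in arterial, -0.19 (-0.21) in fibroblast and 0.33 (0.18) in monocyte. The looser gate (1 more marker) also gave summed ratios of 0.11 (0.21) in arterial, -0.44 (-0.52) in capillary, -0.18 (-0.22) in lymphatic, 0.0094 (-0.014) in smooth muscle, -0.20 (-0.21) in fibroblast, -0.027 (-0.055) in macrophage, 0.30 (0.19) in monocyte, 0.66 (0.57) in T or NK, 0.62 (0.70) in B and -0.36 (-0.22) in Schwann. The looser gate (1 more marker) also gave counts of lower genes of 2 (1) in arterial, 0 (1) in smooth muscle, 0 (1) in monocyte and 0 (1) in T or NK, and counts of higher genes of 2 (5) in arterial, 1 (2) in lymphatic and 0 (3) in Schwann. The stricter cell filter (1000 genes, 5% mitochondrial) gave summed ratios of -0.23 (-0.28) in blood, -0.11 (-0.26) in venous, -0.037 (-0.22) in lymphatic, -0.23 (-0.014) in smooth muscle, -0.16 (-0.21) in fibroblast, 0.24 (0.19) in monocyte, 1.01 (0.96) in neutrophil, 0.89 (0.70) in B and -0.33 (-0.22) in Schwann. The stricter cell filter (1000 genes, 5% mitochondrial) also gave counts of lower genes of 2 (1) in arterial, 3 (7) in lymphatic, 5 (1) in smooth muscle and 3 (5) in fibroblast, and medians of -0.12 (-0.29) in lymphatic, -0.21 (-0.0080) in smooth muscle and -0.15 (-0.21) in fibroblast. The looser cell filter (200 genes, 20% mitochondrial) gave summed ratios of -0.32 (-0.28) in blood, -0.25 (-0.22) in lymphatic, -0.21 (-0.21) in fibroblast, -0.064 (-0.055) in macrophage and -0.32 (-0.22) in Schwann, and counts of higher genes of 1 (2) in lymphatic. Keeping cells whatever their Scrublet score gave summed ratios of -0.26 (-0.28) in blood, 0.26 (0.21) in arterial, -0.31 (-0.26) in venous, 0.0068 (-0.014) in smooth muscle, -0.21 (-0.21) in fibroblast and 0.89 (0.96) in neutrophil, and counts of lower genes of 0 (1) in smooth muscle. Keeping cells whatever their Scrublet score also gave counts of higher genes of 2 (4) in smooth muscle. Scaling by TMM gave summed ratios of -0.26 (-0.28) in blood, 0.24 (0.21) in arterial, -0.56 (-0.52) in capillary, -0.17 (-0.21) in fibroblast, -0.065 (-0.055) in macrophage, 0.27 (0.19) in monocyte, 0.90 (0.96) in neutrophil and 0.41 (0.57) in T or NK. Scaling by TMM also gave medians of -0.17 (-0.21) in fibroblast, and counts of lower genes of 3 (5) in fibroblast. Totals without mitochondrial and ribosomal genes gave summed ratios of -0.19 (-0.21) in fibroblast, -0.046 (-0.055) in macrophage and 0.51 (0.57) in T or NK. Equal weights for all cells gave medians of -0.45 (-0.26) in blood, 0.028 (-0.15) in venous, -0.28 (-0.21) in fibroblast, -0.065 (-0.18) in macrophage and 0.65 (1.06) in neutrophil. Equal weights for all cells also gave summed ratios of -0.31 (-0.28) in blood, -0.47 (-0.52) in capillary, -0.18 (-0.26) in venous, 0.017 (-0.014) in smooth muscle, 0.029 (-0.055) in macrophage, 0.23 (0.19) in monocyte, 0.55 (0.96) in neutrophil, 0.52 (0.57) in T or NK, 0.56 (0.70) in B and -0.14 (-0.22) in Schwann. Equal weights for all cells also gave counts of lower genes of 2 (1) in arterial, 3 (6) in venous, 1 (2) in macrophage and 0 (1) in neutrophil. Subtracting free RNA gave summed ratios of -0.30 (-0.28) in blood, 0.26 (0.21) in arterial, -0.56 (-0.52) in capillary and -0.094 (-0.014) in smooth muscle, and counts of lower genes of 2 (1) in arterial and 6 (1) in smooth muscle, and counts of higher genes of 12 (5) in arterial. Thinning cells to 2000 UMIs gave summed ratios of -0.30 (-0.28) in blood, -0.49 (-0.52) in capillary, -0.13 (-0.26) in venous, -0.16 (-0.22) in lymphatic, 0.024 (-0.014) in smooth muscle, -0.022 (-0.055) in macrophage, 0.59 (0.96) in neutrophil, 0.52 (0.57) in T or NK, 0.58 (0.70) in B and 0.0096 (-0.22) in Schwann. Thinning cells to 2000 UMIs also gave counts of higher genes of 2 (5) in arterial, 2 (4) in venous, 1 (2) in lymphatic, 1 (0) in macrophage, 13 (24) in neutrophil and 1 (3) in Schwann. Thinning cells to 2000 UMIs also gave medians of -0.43 (-0.58) in capillary, -0.17 (-0.29) in lymphatic and 0.57 (1.06) in neutrophil. Thinning cells to 2000 UMIs also gave counts of lower genes of 0 (6) in venous, 2 (7) in lymphatic, 3 (1) in smooth muscle, 2 (1) in monocyte, 0 (1) in neutrophil, 2 (1) in T or NK and 1 (7) in Schwann. Thinning cells to 2000 UMIs also gave ratios in lymphatic cells of 0.31 (-0.62) for Atf3 and 0.086 (-0.80) for Socs3. Leaving out cells with adipocyte UMIs gave summed ratios of -0.17 (-0.28) in blood and -0.25 (-0.22) in lymphatic, and counts of lower genes of 2 (1) in arterial. A minimum of 20 UMIs gave counts of lower genes of 2 (1) in T or NK. A minimum of 200 UMIs gave counts of lower genes of 0 (1) in arterial, 1 (2) in macrophage, 0 (1) in neutrophil and 2 (7) in Schwann, and counts of higher genes of 1 (4) in venous and 0 (3) in Schwann. A minimum of 200 UMIs also gave medians of -0.19 (-0.21) in fibroblast and 0.060 (0.18) in monocyte. A limit of 2-fold gave counts of lower genes of 2 (10) in blood, 0 (1) in arterial, 7 (15) in capillary, 1 (6) in venous, 2 (7) in lymphatic, 0 (1) in smooth muscle, 0 (5) in fibroblast, 0 (2) in macrophage, 0 (1) in monocyte, 0 (1) in neutrophil, 0 (1) in T or NK and 3 (7) in Schwann. A limit of 2-fold also gave counts of higher genes of 1 (5) in arterial, 2 (4) in venous, 0 (2) in lymphatic, 0 (4) in smooth muscle, 4 (9) in monocyte, 11 (18) in T or NK, 11 (18) in B and 1 (3) in Schwann. Equal weights for the 3 blood endothelial subtypes gave summed ratios of -0.26 (-0.28) in blood, and counts of lower genes of 5 (10) in blood, and counts of higher genes of 2 (1) in blood. Leaving out cells over 30000 UMIs gave summed ratios of -0.31 (-0.28) in blood, -0.48 (-0.52) in capillary, -0.38 (-0.22) in lymphatic, -0.22 (-0.21) in fibroblast, -0.067 (-0.055) in macrophage, 0.14 (0.19) in monocyte and 0.64 (0.70) in B. Leaving out cells over 30000 UMIs also gave counts of lower genes of 3 (1) in arterial, and counts of higher genes of 2 (5) in arterial and 2 (4) in smooth muscle, and ratios in lymphatic cells of 0.43 (-1.29) for Nr4a2. Leaving out the cell with most list UMIs gave medians of 0.37 (0.22) in arterial, and summed ratios of 0.27 (0.21) in arterial, 0.015 (-0.014) in smooth muscle, 0.24 (0.19) in monocyte and -0.15 (-0.22) in Schwann. Leaving out the cell with most list UMIs also gave counts of lower genes of 2 (1) in arterial, 0 (1) in smooth muscle and 4 (7) in Schwann, and counts of higher genes of 10 (5) in arterial. Leaving out Lef1 cells gave summed ratios of 0.43 (0.57) in T or NK, and counts of lower genes of 2 (1) in T or NK, and counts of higher genes of 11 (18) in T or NK, and ratios in T or NK cells of -0.12 (0.72) for Maff. Leaving out immature neutrophils gave medians of -0.16 (1.06) in neutrophil, and summed ratios of -0.10 (0.96) in neutrophil, and counts of lower genes of 3 (1) in neutrophil, and counts of higher genes of 1 (24) in neutrophil. Leaving out immature neutrophils also gave ratios in neutrophil cells of -0.54 (0.65) for Fosb, -0.42 (0.83) for Jun, -0.33 (0.80) for Junb, -0.35 (0.84) for Jund, -0.30 (1.39) for Egr1, -0.12 (1.23) for Ier5, -0.16 (1.39) for Nr4a3, -0.16 (1.32) for Dusp1, -0.061 (1.04) for Zfp36, -0.40 (1.31) for Maff, 0.33 (-0.77) for Fosl1, -0.45 (1.15) for Gadd45b and -0.17 (1.07) for Csrnp1.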
